A study of Homo sapiens with 8 samples.

Results

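Aminoacyl-tRNA synthetases are the enzymes that join each amino acid to its transfer RNA. The 36 studied here were every gene of the deposited expression table whose symbol was on a list of 20 cytosolic and 16 mitochondrial synthetases, out of 18406 symbols in the table. The mitochondrial genes carry the suffix 2 (IARS2 beside IARS). The cells were of 92.1, an established line from a human uveal melanoma, so all groups share 1 tumour genome and no normal melanocytes were compared. Cells were treated for 24 h with vehicle (DMSO), with 10 nM trametinib, with 10 nM panobinostat or with both drugs, and each of the 4 groups had 2 libraries. Trametinib blocks MEK1 and MEK2, kinases that activate ERK. Panobinostat blocks histone deacetylases, although the label of the panobinostat group also calls it a MEK inhibitor. The label of the combination gives a dose of 10 nM once, and that each drug was at 10 nM is an assumption. Whether the libraries of a group are separate cultures is not stated, and p-values therefore measure a spread that may be technical. The sample records of vehicle and trametinib are numbered apart from those of panobinostat and the combination. Whether these sets were prepared or sequenced apart is not stated. If they were, set and drug cannot be told apart where panobinostat or the combination is compared with vehicle or trametinib. In bulk RNA, fewer cells of a kind and less RNA per cell cannot be told apart.

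A synthetase activates its amino acid with ATP and transfers it to the matching tRNA, which then enters the ribosome with an elongation factor. The cytosolic enzymes feed the synthesis of nearly all cell proteins. The mitochondrial enzymes are also encoded in the nucleus, but are imported and serve the few proteins made from mitochondrial DNA. Several cytosolic enzymes sit together in the multisynthetase complex, held by the scaffold proteins AIMP1, AIMP2 and EEF1E1. GARS and KARS each encode both a cytosolic and a mitochondrial form, so their reads cannot be assigned to 1 compartment. EPRS carries glutamyl and prolyl activities in a single protein, while FARSA and FARSB are the subunits of cytosolic phenylalanyl-tRNA synthetase. Mitochondria charge glutamine tRNA in another way, by an amidotransferase that acts on a mischarged tRNA, and the list holds no mitochondrial QARS. Amino acid shortage is known to raise many cytosolic synthetase genes through the transcription factor ATF4, which binds amino acid response elements.

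Values are deposited read counts divided by a size factor per library. The libraries held 6897784 to 16861001 reads. The trametinib libraries stood apart from the others. Their replicates correlated at r = 0.897 over the 13320 tested genes, against 0.974 to 0.991 in the other groups, and 3743 and 5362 genes were at 0 in them, against 2222 to 2890 in the other 6. The median absolute log2 difference between replicates over the 36 synthetases was 0.33 with trametinib and 0.0606 to 0.0909 in the other groups. All 36 genes had a mean of at least 10, the minimum for testing. The lowest value of any of them was 37.2 (MARS2), and the fewest reads of any in a library were 29 (YARS2). The melanocytic marker PMEL was abundant, between 28666 and 53493. All 8 melanocytic markers were higher with trametinib (log2 0.50 to 7.69), where 23.7% of tested genes were higher. With panobinostat 3 of the 8 were higher and 1 lower, where 15.0% and 15.6% of tested genes were. In the combination 5 were higher and 1 lower, where 24.5% and 25.5% of tested genes were. Of the markers of other cell types, PECAM1, CDH5, KDR, PTPRC and CD14 were between 0 and 11.7. The fibroblast gene COL1A1 was 133 and 149 in vehicle and 509.7 to 821 in the treated libraries, LUM was 169 to 592, PDGFRA was 12.6 and 7.92 in vehicle and 15.1 to 105 in the treated libraries, and COL1A2 was at 0 in 6 of 8 libraries. CD68, a lysosomal protein used as a macrophage marker, was 650.0 and 610.4 in vehicle and higher under all 3 treatments (log2 0.35, 1.21 and 0.51 with trametinib, panobinostat and both). KRT14 was 3.61 and 3.17 in vehicle and 0 to 60.9 in the treated libraries, and was higher in the combination than with panobinostat (4.53). The part of these markers in any result was not tested.

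The cytosolic enzymes took a smaller share of all reads in every treated library. Their sum was 0.291% and 0.289% of reads in the vehicle libraries, 0.191% and 0.188% under trametinib, 0.233% and 0.237% under panobinostat, and 0.156% and 0.151% under both drugs. The mitochondrial enzymes summed to 0.0572% and 0.0576% in the vehicle libraries, 0.0463% and 0.0410% under trametinib, 0.0439% and 0.0443% under panobinostat, and 0.0335% and 0.0352% under both drugs. Both classes were thus lowest in the combination and highest in vehicle, and no treated library reached a vehicle library. The order of the single drugs differed between the classes. The cytosolic sum was lower with trametinib than with panobinostat in every library, while the mitochondrial sums of these groups overlapped. These sums are weighted by the abundant members, so the gene by gene changes follow.

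**Figure D1:**
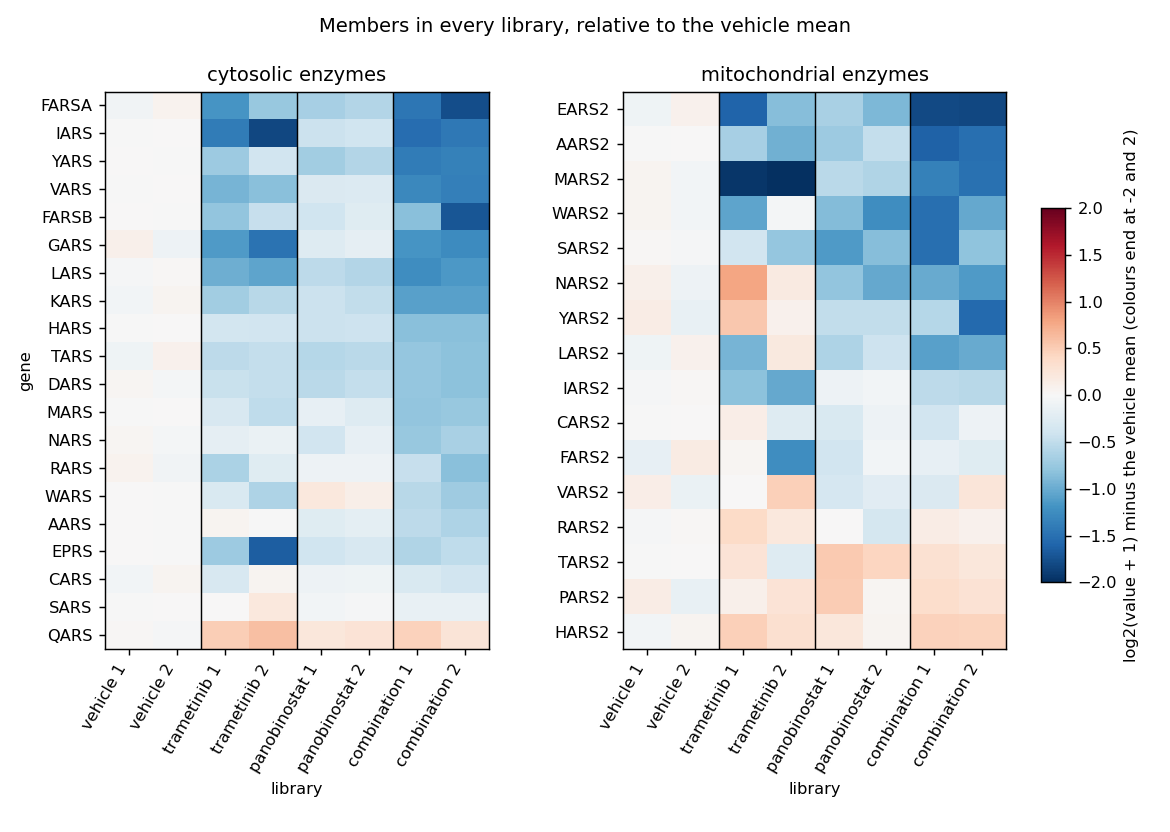
Log2 value of each of the 36 synthetases in each of the 8 libraries relative to the vehicle mean of that gene (colour scale in log2 units), with cytosolic and mitochondrial genes in separate blocks. Most cytosolic rows are below vehicle with trametinib and in the combination, QARS is above vehicle in all 6 treated libraries, and mitochondrial rows are mixed with trametinib.

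The median synthetase moved differently by class and drug. Relative to the vehicle mean, the median cytosolic gene was at a log2 value of -0.57 and -0.48 in the trametinib libraries, -0.39 and -0.26 in the panobinostat libraries, and -0.78 and -0.83 under both drugs. The median mitochondrial gene was at 0.03 and -0.15 under trametinib, -0.43 and -0.39 under panobinostat, and -0.55 and -0.68 under both. With trametinib the cytosolic median was thus below the mitochondrial one in both libraries, by 0.60 and 0.33, while with panobinostat the medians of the classes were within 0.12 of each other. The median change over all tested genes was -0.07 under trametinib, 0.00 under panobinostat and 0.03 under both. No test was made of these class medians, because the genes were chosen with earlier results of these data known.

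**Figure D2:**
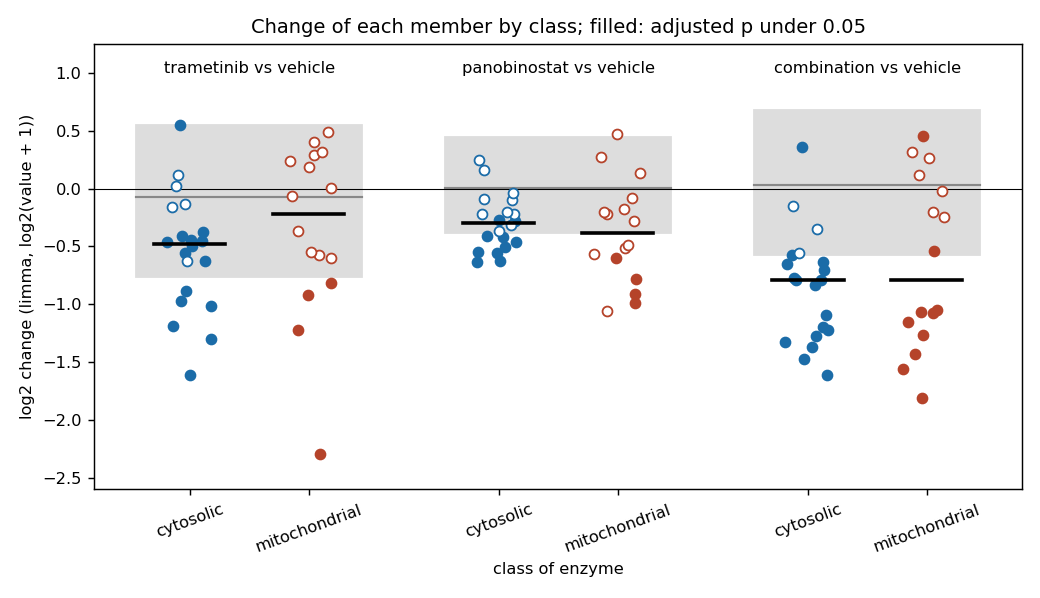
Log2 change against vehicle (vertical axis) of each of the 20 cytosolic and 16 mitochondrial synthetases under each treatment, 1 point per gene, filled where the adjusted p was under 0.05; black bars are class medians, and the grey band and line are the quartiles and median of all 13320 tested genes. With trametinib 14 filled cytosolic and 4 filled mitochondrial points lie below 0, and in the combination the medians of both classes are at -0.79, below the band.

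Promoter letters were read for the genes found in a RefSeq promoter table (GRCh38.p14, from 250 bases before to 50 after each gene start). Of the 36 genes, 26 had an entry, 12 cytosolic and 14 mitochondrial. DARS, GARS, LARS, MARS, QARS, SARS, VARS, YARS, AARS2 and VARS2 had none. The motif TGATGNAA, letters of the amino acid response element, was searched on both strands. It stood in 5 of the 12 cytosolic promoters (41.7%) and in 1 of the 14 mitochondrial ones (7.14%), against 3.67% of all 27305 promoters of the table and 1.66% of the 10331 promoters of tested genes. A match is a description of letters and not a known site. The windows are shown to let the matched letters be read beside the changes of these genes. Each is 30 bases, 5′ to 3′ on the gene's strand, with the motif or its reverse complement in capitals.
AARS, chr16:70289675-70289704, minus strand: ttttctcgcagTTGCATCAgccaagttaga
CARS, chr11:3057407-3057436, minus strand: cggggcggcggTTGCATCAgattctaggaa
IARS, chr9:92293692-92293721, minus strand: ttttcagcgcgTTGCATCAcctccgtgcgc
NARS, chr18:57621804-57621833, minus strand: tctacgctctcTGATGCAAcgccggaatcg
TARS, chr5:33440956-33440985, plus strand: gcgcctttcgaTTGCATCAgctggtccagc
YARS2, chr12:32756076-32756105, minus strand: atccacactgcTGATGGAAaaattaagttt
Counted from the gene start, the first motif base was at -13 in IARS, -2 in CARS, 2 in TARS and 14 in NARS, and farther off in AARS (-187) and YARS2 (-197). All 5 cytosolic windows hold the same 8 letters on 1 strand or the other, TTGCATCA, while YARS2 has TGATGGAA.

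The motif CACGTG, an E-box that MYC and related proteins can bind and that reads the same on both strands, stood in 1 of 12 cytosolic promoters (8.33%) and in 3 of 14 mitochondrial ones (21.4%). All promoters held it in 7.43% and those of tested genes in 10.2%. The windows are given because IARS, CARS2, EARS2 and MARS2 are among the synthetases described below, and the capitals mark the motif. CARS2 did not pass against vehicle under any treatment (-0.06 with trametinib).
IARS, chr9:92293866-92293895, minus strand: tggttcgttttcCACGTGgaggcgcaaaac
CARS2, chr13:110706501-110706530, minus strand: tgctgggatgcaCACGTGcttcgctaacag
EARS2, chr16:23557348-23557377, minus strand: cagggagaagccCACGTGtgctattccatc
MARS2, chr2:197705346-197705375, plus strand: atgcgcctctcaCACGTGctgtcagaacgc
IARS held both motifs. Binding of any factor was not measured here.

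With trametinib most cytosolic synthetases were called lower, while the mitochondrial ones were called lower about as often as tested genes in general. Of the 20 cytosolic genes, 14 were lower and 1 (QARS) higher, and 5 did not pass the test. Of the 16 mitochondrial genes, 4 were lower, none higher, and 12 did not pass. Across all tested genes 27.4% were lower and 23.7% higher in this comparison. Among genes within the range of mean values of the cytosolic members 34.3% were lower, against 29.7% within that of the mitochondrial members. The 14 of 20 cytosolic genes were thus a share above these, and the 4 of 16 mitochondrial genes a share slightly under them. The test was limma on log2(value + 1) with Benjamini-Hochberg adjustment over all tested genes, at an adjusted p under 0.05. The mitochondrial genes had larger standard errors, with a median of 0.236 against 0.105 for the cytosolic genes, so a change of the same size passed less easily. A mitochondrial gene that did not pass is therefore not shown to be unchanged. The median change was -0.48 over the cytosolic and -0.22 over the mitochondrial genes, a difference of -0.26, which became -0.60 without trametinib replicate 2. Without that library NARS2 (0.79) and HARS2 (0.48) passed as higher, and FARSB (-0.78), LARS2 (-0.93) and WARS2 (-1.05) as lower. Without trametinib replicate 1, FARS2 (-1.24) and SARS2 (-0.77) passed as lower. FARSB (-0.62) also passed without either combination library, and SARS2 (-0.57) without combination replicate 1.

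Of the 8 enzymes of the multisynthetase complex, 7 were lower with trametinib and QARS was higher, with a median change of -0.54, and in the combination 6 were lower and QARS higher (median -0.78). Across all tested genes 27.4% were lower and 23.7% higher with trametinib, and 25.5% and 24.5% in the combination. IARS, isoleucyl-tRNA synthetase, had values of 2258 and 2264 in the vehicle libraries, 858 and 637 under trametinib, 1687 and 1707 under panobinostat, and 789 and 839.7 under both drugs. The trametinib and combination values were both far below vehicle and close to each other, with panobinostat in between. The log2 change was -1.61 ± 0.12 (standard error, 2 libraries a group; adjusted p = 5.89e-06), a fall of 3.06-fold, with trametinib and -1.47 ± 0.12 in the combination. LARS, leucyl-tRNA synthetase, had 1948 and 2019.6 in the vehicle libraries, 1009.9 and 954 under trametinib, 1377 and 1325 under panobinostat, and 837 and 889.9 under both drugs. Its libraries did not overlap vehicle under any treatment, and it changed by -1.01 ± 0.08 (adjusted p = 6.69e-06) with trametinib and -1.20 ± 0.08 in the combination. KARS, which supplies lysyl-tRNA to both compartments, had 1613 and 1729 in the vehicle libraries, 1033 and 1131 under trametinib, 1244 and 1185 under panobinostat, and 786 and 782 under both drugs. The combination libraries were the lowest of the 8, with log2 changes of -0.63 ± 0.085 (adjusted p = 0.000237) with trametinib and -1.09 ± 0.085 (adjusted p = 7.1e-06) in the combination.

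EPRS, the glutamyl-prolyl enzyme, had values of 956 and 954 in the vehicle libraries, 577 and 303 under trametinib, 721 and 761 under panobinostat, and 627 and 671 under both drugs. The trametinib libraries were the lowest but far from each other. The change was -1.19 ± 0.24 (adjusted p = 0.0023) with trametinib and -0.73 without trametinib replicate 2. The combination gave -0.56 ± 0.24, which did not pass over all 8 libraries (adjusted p = 0.0758), although its libraries did not overlap vehicle. It passed at the same -0.56 without trametinib replicate 1 (adjusted p = 2.83e-05) or 2 (adjusted p = 1.59e-05), with the compared groups alone (adjusted p = 8.39e-05), with array weights and with DESeq2. MARS, methionyl-tRNA synthetase, had 903 and 908 in the vehicle libraries, 724 and 639 under trametinib, 810.4 and 760.3 under panobinostat, and 526 and 537 under both drugs, and DARS, aspartyl-tRNA synthetase, had 731 and 686 in the vehicle libraries, 522 and 510.4 under trametinib, 486 and 509 under panobinostat, and 416 and 402 under both drugs. Both were lower with trametinib (-0.41 ± 0.10 and -0.46 ± 0.11) and further from vehicle in the combination (-0.77 ± 0.10 and -0.79 ± 0.11). RARS, arginyl-tRNA synthetase, had 1235 and 1126 in the vehicle libraries, 760.2 and 993 under trametinib, 1104 and 1102 under panobinostat, and 858 and 659 under both drugs, with log2 changes of -0.44 ± 0.15 (adjusted p = 0.0357) with trametinib and -0.65 ± 0.15 (adjusted p = 0.0058) in the combination. The trametinib calls of DARS and MARS ended without vehicle replicate 1 (-0.41 and -0.42), and that of MARS also without vehicle replicate 2 (-0.41). That of RARS ended without vehicle replicate 1 (-0.37) or 2 (-0.51), trametinib replicate 1 (-0.25) or panobinostat replicate 1 or 2 (-0.44 each). It also ended with no filter on low values, with median rescaling or with the compared groups alone. The combination call of RARS ended without vehicle replicate 1 (-0.58) or combination replicate 2 (-0.46). The trametinib call of DARS also ended with array weights.

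QARS, glutaminyl-tRNA synthetase and the complex member that went the other way, had 1233 and 1195 in the vehicle libraries, 1714 and 1849 under trametinib, 1425 and 1459 under panobinostat, and 1668 and 1459 under both drugs. All 6 treated libraries were above vehicle, and the trametinib libraries were the highest. It rose by 0.55 ± 0.086 on the log2 scale with trametinib (adjusted p = 0.000558) and by 0.36 ± 0.086 in the combination (adjusted p = 0.00639), while the panobinostat change of 0.25 ± 0.086 did not pass (adjusted p = 0.0555). The combination call ended without vehicle replicate 2 (0.34) or combination replicate 1 (0.27).

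Among the 12 cytosolic synthetases outside the complex, 7 were lower with trametinib (median -0.48) and 10 in the combination (median -0.81), and none was higher. Across all tested genes 27.4% and 25.5% were lower in these comparisons. GARS, the glycyl enzyme of both compartments, had 3653 and 3161 in the vehicle libraries, 1551 and 1225 under trametinib, 2834 and 3011 under panobinostat, and 1494 and 1427 under both drugs. It was at similar low values with trametinib and in the combination and passed in both, and the panobinostat change did not pass (-1.30 ± 0.11, -1.22 ± 0.11 and -0.22 ± 0.11 on the log2 scale, adjusted p = 1.27e-05, 2.14e-05 and 0.182). VARS, valyl-tRNA synthetase, had 3065 and 3101 in the vehicle libraries, 1611 and 1721 under trametinib, 2534 and 2548 under panobinostat, and 1263 and 1199 under both drugs. The groups did not overlap and stepped down from vehicle to panobinostat, trametinib and the combination, with changes of -0.89 ± 0.068 (adjusted p = 5.53e-06) with trametinib and -1.32 ± 0.068 (adjusted p = 5.98e-07) in the combination. FARSA, the catalytic subunit of phenylalanyl-tRNA synthetase, had 1079.7 and 1184 in the vehicle libraries, 500.5 and 666 under trametinib, 711 and 756 under panobinostat, and 413 and 330.1 under both drugs, and changed by -0.97 ± 0.16 (adjusted p = 0.000722) and -1.61 ± 0.16 (adjusted p = 2.89e-05). Its partner subunit FARSB had 371 and 369 in the vehicle libraries, 215 and 268 under trametinib, 280.3 and 314 under panobinostat, and 207 and 113 under both drugs. All treated FARSB libraries were below vehicle, but the change passed in the combination (-1.27 ± 0.27, adjusted p = 0.00316) and not with trametinib (-0.62 ± 0.27, adjusted p = 0.0777). Without combination replicate 2 the FARSB change in the combination was -0.83.

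YARS, tyrosyl-tRNA synthetase, had values of 953 and 944 in the vehicle libraries, 573 and 728 under trametinib, 588 and 630.2 under panobinostat, and 361 and 373 under both drugs. The combination libraries were the lowest and the single drugs overlapped, with changes of -0.55 ± 0.13 (adjusted p = 0.00557) with trametinib and -1.37 ± 0.13 (adjusted p = 2.2e-05) in the combination. TARS, threonyl-tRNA synthetase, had 2288 and 2559.6 in the vehicle libraries, 1691 and 1732 under trametinib, 1637 and 1663 under panobinostat, and 1417 and 1374 under both drugs. Its single-drug libraries were close to each other and its combination libraries lower, with changes of -0.50 ± 0.076 and -0.79 ± 0.076. HARS, histidyl-tRNA synthetase, had 1125 and 1128 in the vehicle libraries, 872 and 867 under trametinib, 838 and 846 under panobinostat, and 631 and 631 under both drugs, which stepped from vehicle to the single drugs to the combination with replicates that differed little (-0.37 ± 0.084 with trametinib, adjusted p = 0.00467, and -0.84 ± 0.084 in the combination). WARS, tryptophanyl-tRNA synthetase, had 1189 and 1168 in the vehicle libraries, 957 and 769 under trametinib, 1364 and 1275 under panobinostat, and 802 and 721 under both drugs. It was above vehicle in both panobinostat libraries, though not past the test (0.16 ± 0.12, adjusted p = 0.333), and below vehicle with trametinib (-0.46 ± 0.12, adjusted p = 0.00859) and in the combination (-0.63 ± 0.12). The trametinib call of WARS ended without vehicle replicate 1 (-0.45), and the value was -0.30 without trametinib replicate 2.

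The 5 cytosolic genes that did not pass with trametinib were FARSB, AARS, NARS, CARS and SARS. AARS, alanyl-tRNA synthetase, had 1388 and 1384 in the vehicle libraries, 1446 and 1374 under trametinib, 1172 and 1208 under panobinostat, and 966 and 902 under both drugs. Its trametinib libraries lay around vehicle (0.02 ± 0.079), its panobinostat libraries lower (-0.22 ± 0.079, adjusted p = 0.0622), and the combination lowest (-0.57 ± 0.079, adjusted p = 0.000267). NARS, asparaginyl-tRNA synthetase, had 2248 and 2149 in the vehicle libraries, 1935 and 2007 under trametinib, 1684 and 1961 under panobinostat, and 1304 and 1404 under both drugs, and passed in the combination (-0.70 ± 0.088) but not with trametinib (-0.16 ± 0.088, adjusted p = 0.161). CARS, the cysteinyl enzyme, had 358 and 388 in the vehicle libraries, 298 and 388 under trametinib, 348 and 352 under panobinostat, and 301 and 284 under both drugs, and SARS, the seryl enzyme, had 923 and 928 in the vehicle libraries, 935 and 1072 under trametinib, 895 and 909 under panobinostat, and 831 and 835 under both drugs. Neither passed against vehicle in the fit of all 8 libraries. CARS passed as lower in the combination, at the same -0.35, without trametinib replicate 1 (adjusted p = 0.0172) or 2 (adjusted p = 0.0191), with the compared groups alone and with array weights. The 95% interval of the combination change was -0.71 to 0.01 for CARS and -0.36 to 0.06 for SARS, and the class median was -0.79. AARS, CARS and NARS hold the TTGCATCA letters shown above, as do IARS and TARS, whose trametinib changes were -1.61 and -0.50.

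**Figure D3:**
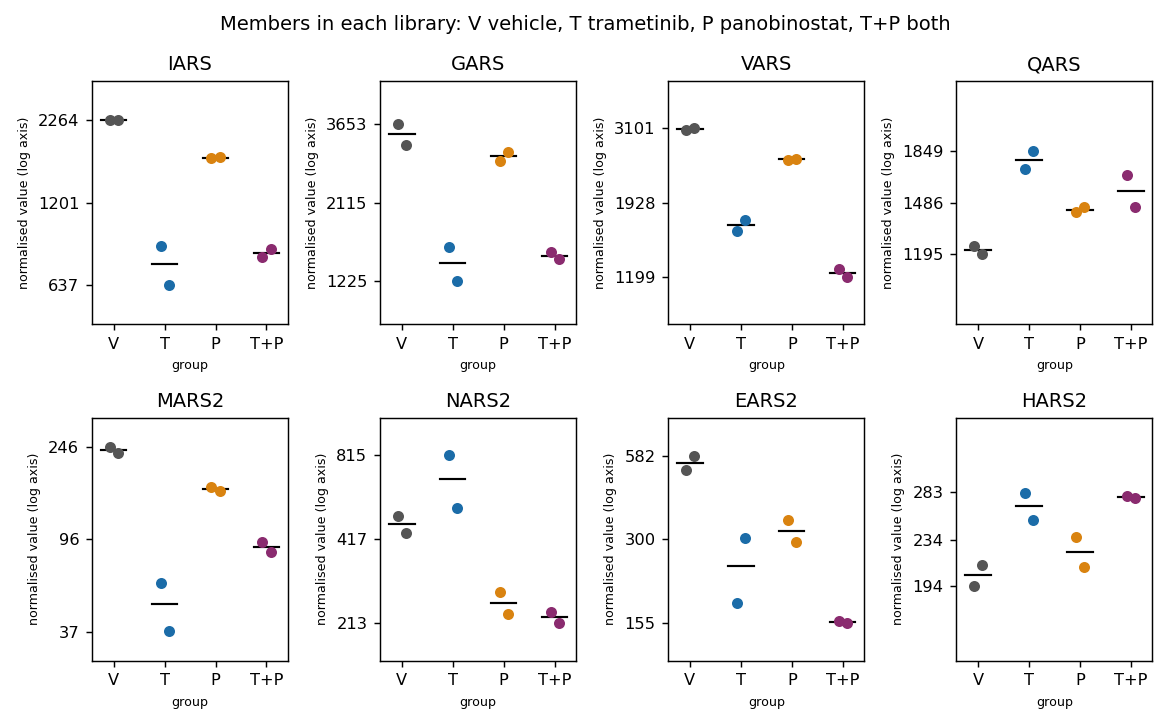
Normalised values (vertical log axis) of 8 synthetases in each library, 1 point per library, with the group mean as a bar, for vehicle (V), trametinib (T), panobinostat (P) and both drugs (T+P). IARS and GARS are low with trametinib and in the combination, QARS is above vehicle in all 6 treated libraries, and MARS2 is lowest with trametinib.

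The mitochondrial synthetases had their largest called fall with trametinib in MARS2, the methionyl enzyme. It had 246 and 230.4 in the vehicle libraries, 61.2 and 37.2 under trametinib, 164 and 156 under panobinostat, and 92.5 and 83.7 under both drugs. The trametinib libraries were the lowest and the combination libraries lay between them and panobinostat. The log2 change was -2.30 ± 0.29 with trametinib (adjusted p = 0.000149), a fall of 4.91-fold, and -1.43 ± 0.29 in the combination (adjusted p = 0.0027). Its cytosolic counterpart MARS changed by -0.41 and -0.77. EARS2, the glutamyl enzyme, had 521 and 582 in the vehicle libraries, 182 and 304 under trametinib, 349.7 and 293 under panobinostat, and 157 and 155 under both drugs. Every treated library was below vehicle and the combination was lowest, with -1.22 ± 0.23 (adjusted p = 0.00187) and -1.81 ± 0.23 (adjusted p = 0.000167). AARS2, the alanyl enzyme, had 973 and 994 in the vehicle libraries, 621 and 503 under trametinib, 596 and 707 under panobinostat, and 319.6 and 345 under both drugs. All treated libraries were below vehicle and the combination libraries below the single drugs, with -0.81 ± 0.14 (adjusted p = 0.00084) and -1.56 ± 0.14 (adjusted p = 1.39e-05). IARS2, the isoleucyl enzyme, had 1015 and 1055 in the vehicle libraries, 584 and 510.4 under trametinib, 959 and 998 under panobinostat, and 716 and 704 under both drugs, with trametinib lowest, the combination between, and panobinostat near vehicle (-0.92 ± 0.10, adjusted p = 5.11e-05, and -0.54 ± 0.10, adjusted p = 0.00144).

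A further 5 mitochondrial genes passed lower in the combination and not with trametinib. NARS2, the asparaginyl enzyme, had 503 and 439 in the vehicle libraries, 815 and 533 under trametinib, 272 and 229.9 under panobinostat, and 233 and 213 under both drugs. Both trametinib libraries were above vehicle, though not past the test (0.49 ± 0.20, adjusted p = 0.0723), and the panobinostat and combination libraries were below it, with -1.07 ± 0.20 in the combination (adjusted p = 0.00179). SARS2, the seryl enzyme, had 367 and 359 in the vehicle libraries, 279 and 213 under trametinib, 165 and 201 under panobinostat, and 128 and 207 under both drugs, and was lower in all treated libraries, with -0.57 ± 0.25 (adjusted p = 0.0859) with trametinib and -1.15 ± 0.25 (adjusted p = 0.00403) in the combination. LARS2, the leucyl enzyme, had 344 and 383 in the vehicle libraries, 191 and 414 under trametinib, 235 and 272 under panobinostat, and 171 and 179.5 under both drugs. Its trametinib libraries lay on either side of vehicle. The combination changes were -1.05 ± 0.30 for LARS2, -1.27 ± 0.42 for WARS2 and -1.06 ± 0.36 for YARS2 (adjusted p = 0.0172, 0.0303 and 0.0329). WARS2, the tryptophanyl enzyme, had 113 and 105 in the vehicle libraries, 52.2 and 105 under trametinib, 59.1 and 45.4 under panobinostat, and 37.5 and 53.2 under both drugs, and YARS2, the tyrosyl enzyme, had 146 and 119.5 in the vehicle libraries, 194 and 141 under trametinib, 93.8 and 93.8 under panobinostat, and 89.0 and 44.1 under both drugs, with the YARS2 combination libraries far from each other. These last 3 calls ended in several fits with 1 library fewer, and those of WARS2 and YARS2 also with no filter on low values. LARS2 and WARS2 did not pass without vehicle replicate 1 (-1.12 and -1.22) or 2 (-0.97 and -1.31) or without combination replicate 1 (-1.01 and -1.02) or 2 (-1.08 and -1.51). The YARS2 call ended on leaving out combination replicate 2 (-0.57), vehicle replicate 1 (-0.92) or 2 (-1.21), or a panobinostat library (-1.06 each).

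HARS2, the histidyl enzyme, was the only mitochondrial gene called higher against vehicle in the limma fit of all 8 libraries. This was in the combination, where 24.5% of all tested genes were higher. It had 194 and 211 in the vehicle libraries, 283 and 253 under trametinib, 237 and 209.7 under panobinostat, and 279 and 277 under both drugs. The trametinib and combination libraries were all above vehicle, while panobinostat overlapped it. The change was 0.45 ± 0.17 in the combination (adjusted p = 0.047) and 0.40 ± 0.17 with trametinib, which did not pass (adjusted p = 0.0722). The combination call ended without either library of vehicle (0.39 and 0.51), panobinostat (0.45 each) or the combination (0.45 and 0.46). It also ended with log2(value + 5), no filter on low values, TMM, median rescaling, edgeR or a replicate block. HARS and HARS2 lie head to head, with starts 85 bases apart on chromosome 5 and the stretch between them shown because the neighbours moved in opposite directions (plus strand, GRCh38.p14, chr5:140691371-140691454, HARS reading to the left and HARS2 to the right).
HARS-HARS2 interval: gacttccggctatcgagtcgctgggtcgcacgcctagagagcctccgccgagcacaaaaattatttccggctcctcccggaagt
Across these 84 bases HARS fell by 0.84 in the combination and HARS2 rose by 0.45, both in log2. The starts used here leave a gap between the genes, and whether other transcripts of them overlap was not examined. The sources used here do not say whether counting used the strand. Reads of any transcripts that do overlap could have been assigned to either gene.

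The other 6 mitochondrial genes did not pass against vehicle under any treatment in the fit of all 8 libraries. They were CARS2, FARS2, PARS2, RARS2, TARS2 and VARS2, the cysteinyl, phenylalanyl, prolyl, arginyl, threonyl and valyl enzymes. Their changes ran from -0.60 (FARS2) to 0.29 (RARS2) with trametinib, from -0.28 (VARS2) to 0.47 (TARS2) with panobinostat and from -0.24 (CARS2) to 0.32 (PARS2) in the combination. The standard errors were wide. FARS2, for example, had 119 and 48.2 in the trametinib libraries against 104 and 129 in vehicle, and its 95% interval for trametinib was -1.52 to 0.32. Without trametinib replicate 1 it passed at -1.24 (adjusted p = 0.00107). TARS2 had 232 and 237 in the vehicle libraries, 283 and 195 under trametinib, 335 and 315 under panobinostat, and 289 and 274 under both drugs, highest in the panobinostat libraries (0.47 ± 0.19, adjusted p = 0.0987). It passed at the same 0.47 without trametinib replicate 1 (adjusted p = 0.00807) or 2 (adjusted p = 0.00679), with the compared groups alone and with array weights.

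With panobinostat alone, 10 of 20 cytosolic and 4 of 16 mitochondrial synthetases were lower and none was higher, where 15.6% of all tested genes were lower and 15.0% higher. Within the ranges of mean values of the members, 23.3% and 16.1% of genes were lower. The median changes were -0.30 for cytosolic and -0.39 for mitochondrial genes. LARS and TARS, the leucyl and threonyl enzymes, changed by -0.55 ± 0.08 (adjusted p = 0.000929) and -0.55 ± 0.076 (adjusted p = 0.000724). YARS (-0.64 ± 0.13), FARSA (-0.62 ± 0.16), DARS (-0.51 ± 0.11), KARS (-0.46 ± 0.085), HARS (-0.42 ± 0.084), IARS (-0.41 ± 0.12), VARS (-0.28 ± 0.068) and NARS (-0.27 ± 0.088) were the other 8 cytosolic genes called. The mitochondrial calls were SARS2 (-0.99 ± 0.25), NARS2 (-0.91 ± 0.20), EARS2 (-0.78 ± 0.23) and AARS2 (-0.60 ± 0.14). None of the 14 was lower by 2-fold. SARS2 came nearest, with 165 and 201 against 367 and 359 in vehicle. In the fit of all 8 libraries the groups share 1 spread, which includes that of the more variable trametinib replicates. With the compared groups alone, 15 cytosolic and 8 mitochondrial genes were lower with panobinostat and 1 of each class was higher. The counts lower with trametinib were then 14 and 4. Of all 13320 tested genes, 3768 were then lower and 3567 higher with panobinostat, and 2726 lower with trametinib.

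The calls of LARS and TARS were the ones that held with each library left out. The cytosolic count became 3 without vehicle replicate 1, 4 without vehicle replicate 2 and 4 without panobinostat replicate 1, and the mitochondrial count became 0 without vehicle replicate 1 and 1 without vehicle replicate 2 or either panobinostat library. Without trametinib replicate 1 or 2 the mitochondrial count was 7, and QARS (0.25) and TARS2 (0.47) passed as higher and AARS (-0.22), EPRS (-0.37), GARS (-0.22), LARS2 (-0.52), MARS2 (-0.57) and WARS2 (-1.06) as lower. QARS (0.25) also passed without combination replicate 1 or 2. Without vehicle replicate 1, AARS2 (-0.61), DARS (-0.46), EARS2 (-0.86), FARSA (-0.69), HARS (-0.42), IARS (-0.42), NARS (-0.24), NARS2 (-0.81), SARS2 (-0.97), VARS (-0.29) and YARS (-0.63) did not pass. Without vehicle replicate 2 this held for AARS2 (-0.58), EARS2 (-0.70), FARSA (-0.56), HARS (-0.42), IARS (-0.41), KARS (-0.41), NARS (-0.31), SARS2 (-1.01) and VARS (-0.27). Without panobinostat replicate 1 it held for AARS2 (-0.48), DARS (-0.48), EARS2 (-0.91), FARSA (-0.58), IARS (-0.41), NARS (-0.16), SARS2 (-0.85), VARS (-0.27) and YARS (-0.59), and without panobinostat replicate 2 for EARS2 (-0.65), FARSA (-0.67), IARS (-0.42), NARS2 (-0.79), SARS2 (-1.13) and VARS (-0.28). EARS2 (-0.78), IARS (-0.41) and NARS (-0.27) also lost their call without combination replicate 1 or 2, which change the pooled spread only.

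The combination lowered the most synthetases of the 3 treatments. Against vehicle, 16 of 20 cytosolic genes were lower and 1 (QARS) higher, and 9 of 16 mitochondrial genes were lower and 1 (HARS2) higher, where 25.5% of all tested genes were lower and 24.5% higher. Within the members' ranges of mean values 36.6% and 27.8% of genes were lower. The median change was -0.79 in each class, and 8 genes of each class were lower by at least 2-fold and called. The difference of the class medians was 0.00, and it was -0.14 without combination replicate 1 and -0.23 without combination replicate 2. In the combination libraries themselves the cytosolic minus mitochondrial median was -0.23 and -0.14. The 0.00 thus holds only after the libraries are averaged for each gene. The 3 comparisons with vehicle share the vehicle libraries.

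Both combination libraries were below all other 6 libraries for 13 of the 20 cytosolic genes and 4 of the 16 mitochondrial genes, where this held for 10.7% of all tested genes. The cytosolic genes were AARS, HARS, KARS, MARS, NARS, TARS, VARS, YARS, FARSA, DARS, LARS, SARS and FARSB, and the mitochondrial ones AARS2, EARS2, LARS2 and YARS2. IARS, GARS and EPRS were not among them, since trametinib alone brought these as low or lower.

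The combination was compared with each drug alone. Against panobinostat, 15 cytosolic and 3 mitochondrial synthetases were lower in the combination and none was higher, where 13.1% of tested genes were lower and 10.9% higher. The largest of these changes were -1.06 ± 0.12 (IARS), -1.05 ± 0.068 (VARS), -1.03 ± 0.23 (EARS2), that of GARS, with 1494 and 1427 against 2834 and 3011, and -0.99 ± 0.16 (FARSA). The mitochondrial genes called were EARS2, AARS2 (-0.96 ± 0.14) and IARS2 (-0.46 ± 0.10). The median change was -0.56 over cytosolic and -0.19 over mitochondrial genes. The call of EARS2 ended without panobinostat replicate 1 (-0.91) or combination replicate 1 (-1.04) or 2 (-1.03), and that of IARS2 without panobinostat replicate 2 (-0.43) or combination replicate 2 (-0.45). The number lower, 18 in all, was 12 to 21 with 1 library left out.

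Against trametinib, 10 cytosolic synthetases were lower in the combination and none higher, while 3 mitochondrial genes were lower and 2 higher, where 15.2% of tested genes were lower and 17.6% higher. YARS (-0.82 ± 0.13, adjusted p = 0.00126), AARS (-0.59 ± 0.079, adjusted p = 0.000485), NARS (-0.54 ± 0.088), HARS (-0.46 ± 0.084), KARS (-0.46 ± 0.085) and VARS (-0.44 ± 0.068) were lower. FARSA (-0.64), MARS (-0.36), DARS (-0.34) and TARS (-0.29) were the other cytosolic genes called lower. The mitochondrial genes called lower were NARS2 (-1.56 ± 0.20, adjusted p = 0.000436), YARS2 (-1.38, adjusted p = 0.0164) and AARS2 (-0.75 ± 0.14). The calls of MARS, DARS and TARS ended without either combination library, and those of FARSA and YARS2 without combination replicate 2. Those of FARSA, MARS, DARS, TARS and YARS2 also ended with the compared groups alone. MARS2 was higher in the combination than with trametinib (0.87 ± 0.29, adjusted p = 0.0459), as was IARS2 (0.38 ± 0.10, adjusted p = 0.0168). The IARS2 call ended without combination replicate 1 (0.37) or 2 (0.39), and with the compared groups alone or array weights. The MARS2 call ended without either library of vehicle or panobinostat (0.87 each), trametinib replicate 2 (0.52) or combination replicate 1 (0.80) or 2 (0.94). It also ended with no filter on low values, TMM, median rescaling, edgeR, the compared groups alone or array weights. The number lower, 13, was 21 without trametinib replicate 1. The number higher, 2, was then 7, was 0 without either combination library, and was 1 without trametinib replicate 2 or any library of vehicle or panobinostat.

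The single drugs were set against each other at 10 nM each, which are doses of unlike agents. With trametinib, 6 cytosolic and 2 mitochondrial synthetases were lower than with panobinostat and 2 cytosolic and 1 mitochondrial higher, where 23.4% of tested genes were lower and 18.7% higher. Of the 36 synthetases, 22.2% were thus lower and 8.33% higher, under the shares over all tested genes. IARS (-1.20 ± 0.12, adjusted p = 6.41e-05), GARS (-1.08 ± 0.11), WARS (-0.62 ± 0.12), VARS (-0.61 ± 0.068) and LARS (-0.46 ± 0.08) were lower with trametinib, and so were MARS2 (-1.73 ± 0.29, adjusted p = 0.00126) and IARS2 (-0.84 ± 0.10). NARS2 was higher with trametinib by 1.40 ± 0.20 (adjusted p = 0.00054), with 815 and 533 against 272 and 229.9, as were QARS (0.30 ± 0.086) and AARS (0.24 ± 0.079). The QARS call ended without panobinostat replicate 1 (0.29) or 2 (0.32). That of AARS ended without either vehicle library (0.24), trametinib replicate 1 (0.21) or panobinostat replicate 1 (0.22) or 2 (0.27). The QARS and AARS calls also ended with the compared groups alone or array weights, and that of EPRS with the compared groups alone. EPRS (-0.82 ± 0.24) was no longer called without panobinostat replicate 1 (-0.86) or 2 (-0.78), and was -0.36 without trametinib replicate 2 and -1.28 without trametinib replicate 1. The number higher, 3, was 6 without either trametinib library and 1 without either panobinostat library.

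The interaction asks whether the change from trametinib to the combination differed from the change from vehicle to panobinostat, in log2. It passed in 3 synthetases above 0 and 2 below, where 10.2% of tested genes were above and 9.04% below. MARS2 (1.44 ± 0.41, adjusted p = 0.0373), IARS2 (0.46 ± 0.14, adjusted p = 0.0477) and LARS (0.37 ± 0.11, adjusted p = 0.0491) were above 0, which means that the combination was less low than the sum of the single-drug changes. QARS (-0.44 ± 0.12, adjusted p = 0.0337) and AARS (-0.37 ± 0.11, adjusted p = 0.0442) were below 0. In AARS neither drug alone passed in the fit of all 8 libraries, but the panobinostat change passed at -0.22 without trametinib replicate 1 or 2, with the compared groups alone and with array weights, and near that value with median rescaling (-0.24) and DESeq2 (-0.23). The 95% interval was 0.51 to 2.36 for MARS2 and -0.71 to -0.16 for QARS. The other 31 genes did not pass, which does not show that their changes were additive. All 5 calls ended without vehicle replicate 1 (MARS2 1.39, IARS2 0.49, LARS 0.39, QARS -0.46, AARS -0.38), vehicle replicate 2 (1.49, 0.43, 0.34, -0.42 and -0.37 in the same order), panobinostat replicate 1 (1.47, 0.43, 0.40, -0.46 and -0.40) or 2 (1.40, 0.49, 0.34, -0.42 and -0.35), and combination replicate 2 (1.51, 0.47, 0.32, -0.34 and -0.33). Without combination replicate 1 the first 3 and AARS ended (1.37, 0.45, 0.41 and -0.42).

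For 14 amino acids with a cytosolic gene of their own and a mitochondrial gene on the list, the ratio of the pair was compared between groups. EPRS, which serves 2 amino acids, was not paired with EARS2 or PARS2. With trametinib EPRS changed by -1.19, EARS2 by -1.22 and PARS2 by 0.19. With trametinib the log2 ratio of cytosolic to mitochondrial was lower than in vehicle for 10 pairs and higher for 4, with a median change of -0.57. With panobinostat it was lower for 6 and higher for 8 (median 0.04), and in the combination lower for 9 and higher for 5 (median -0.23). The libraries overlapped vehicle in 3 of the 10 lower and 1 of the 4 higher pairs under trametinib, in 2 of 6 and 3 of 8 under panobinostat, and in 2 of 9 and 0 of 5 under both. VARS to VARS2 changed by -1.13 with trametinib and -1.31 in the combination, and HARS to HARS2 by -0.77 and -1.29. The ratio moved the other way for MARS to MARS2, by 1.88 with trametinib, since MARS2 dropped more than MARS. AARS to AARS2 was higher by 0.84 under trametinib, 0.38 under panobinostat and 0.99 under both, and SARS to SARS2 by 0.69, 0.95 and 1.00. For those 5 named pairs the libraries of the group and of vehicle did not overlap, except VARS with panobinostat (0.00). WARS to WARS2 was higher by 1.22 with panobinostat, the largest change above 0 with that drug, and TARS to TARS2 changed by -1.02, the largest change below 0. No test was made of the pair ratios, and the smallest two-sided p that an exact permutation of 2 against 2 libraries can give is 0.333.

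**Figure D4:**
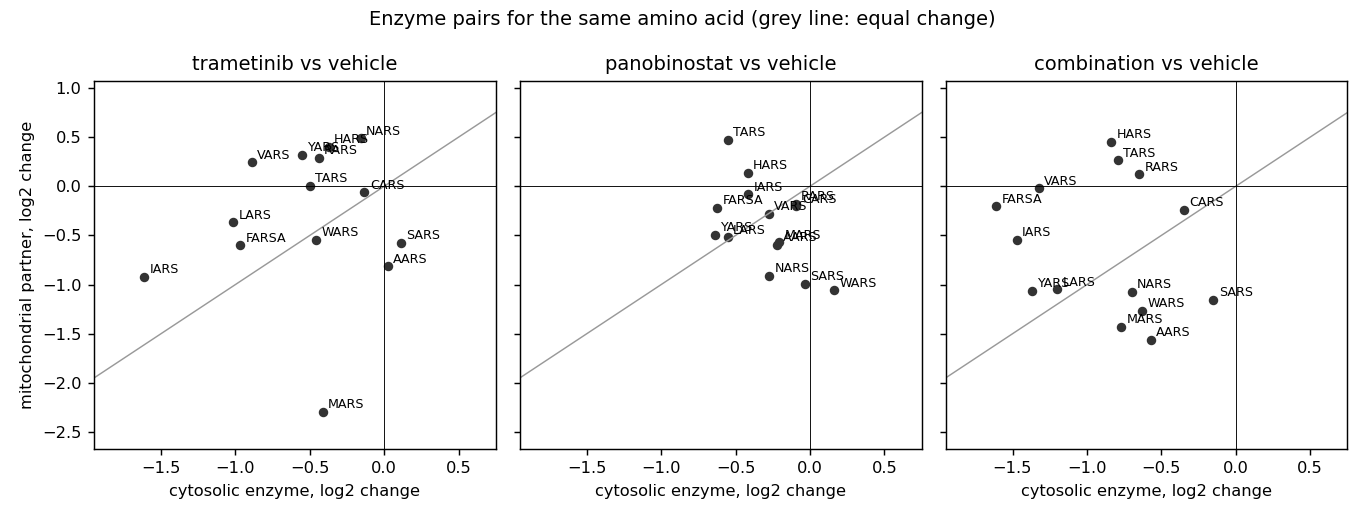
Log2 change against vehicle of the cytosolic enzyme (horizontal axis) and of its mitochondrial counterpart (vertical axis) for 14 amino acids under each treatment, labelled by the cytosolic gene; the grey line marks equal change. With trametinib 10 of 14 pairs lie above the line, where the cytosolic enzyme changed more towards low values, and MARS lies far below it.

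The scaffolds and factors that work with the synthetases were also measured. Their counts stand beside the shares of all tested genes given above, 27.4% lower and 23.7% higher under trametinib, 15.6% and 15.0% under panobinostat and 25.5% and 24.5% under both. Of the 3 scaffold genes of the multisynthetase complex, all were lower with trametinib and in the combination and 1 with panobinostat (medians -1.32, -1.32 and -0.38 with trametinib, both drugs and panobinostat). AIMP2 had 735 and 693 in the vehicle libraries, 271 and 258 under trametinib, 469 and 494 under panobinostat, and 247 and 196 under both drugs. All treated libraries were below vehicle (-1.43 ± 0.15, -0.57 ± 0.15 and -1.69 ± 0.15 with trametinib, panobinostat and both), and the panobinostat call ended without either library of vehicle (-0.52 and -0.61) or panobinostat (-0.53 and -0.61). AIMP1 changed by -0.59 ± 0.13 (adjusted p = 0.00429), -0.18 ± 0.13 (adjusted p = 0.357) and -0.66 ± 0.13 (adjusted p = 0.00229), and its trametinib call ended without vehicle replicate 2 (-0.54). EEF1E1 was less certain, with 51.1 and 183 in the trametinib libraries against 254 and 233 in vehicle (-1.32 ± 0.48, adjusted p = 0.0447). It was -0.41 without trametinib replicate 1 and -2.23 without trametinib replicate 2, and its call ended without each library other than the latter (-1.38 to -0.41). Its combination call (-1.32 ± 0.48) ended without any library of vehicle, panobinostat or the combination (-1.53 to -1.11). The 5 cytosolic elongation factors, which carry charged tRNA to the ribosome and move it along, moved by less and in both directions. With trametinib 2 were higher and 1 lower, with panobinostat 1 was higher, and in the combination 1 was higher and 3 lower (medians 0.07, -0.05 and -0.21). EEF1G changed by 0.21 ± 0.07, 0.29 ± 0.07 and 0.41 ± 0.07, and EEF2 by -0.15 ± 0.052, -0.14 ± 0.052 and -0.21 ± 0.052, of which the panobinostat change did not pass (adjusted p = 0.0645). The EEF1G calls with trametinib and panobinostat and the EEF2 call with trametinib each ended without vehicle replicate 2 (0.13, 0.21 and -0.11) and without several other libraries, and the EEF2 call in the combination without vehicle replicate 2 (-0.17) or combination replicate 2 (-0.20).

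In mitochondria, 4 of 10 translation factors were lower with trametinib and 1 higher, 3 were lower with panobinostat and 4 in the combination (medians -0.01, -0.19 and -0.25), where 27.4%, 15.6% and 25.5% of all tested genes were lower. TUFM, the mitochondrial counterpart of EEF1A1, had 2374 and 2415 in the vehicle libraries, 1088 and 931 under trametinib, 1563 and 1482 under panobinostat, and 1181 and 1208 under both drugs, with every treated library below vehicle (-1.25 ± 0.088, -0.65 ± 0.088 and -1.003 ± 0.088, adjusted p = 3.32e-06, 0.000665 and 1.51e-05). MTFMT, which formylates the methionine that MARS2 attaches, was lower with trametinib (-1.82 ± 0.48, adjusted p = 0.0105) and did not pass in the combination (0.01 ± 0.48, adjusted p = 0.99). The trametinib change of MTFMT was -0.98 without trametinib replicate 2, and the call ended without vehicle replicate 1 (-1.74). Of the 3 measured amidotransferase genes QRSL1, PET112 and GATC, QRSL1 passed, in the combination (-0.92 ± 0.26, adjusted p = 0.015), a call that ended without vehicle replicate 1 (-0.78) or 2 (-1.05) or combination replicate 1 (-0.75).

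Genes that make and mature the tRNAs are counted here beside the 27.4%, 15.6% and 25.5% of all tested genes that were lower under trametinib, panobinostat and both. Of 24 tRNA maturation and export genes, 13 were lower under trametinib, 6 under panobinostat and 15 under both, and none was higher (medians -0.78, -0.44 and -0.83). XPOT, which exports tRNA from the nucleus, had 2234 and 2285 in the vehicle libraries, 923 and 859 under trametinib, 1333 and 1312 under panobinostat, and 849.9 and 791 under both drugs. All 6 treated libraries of XPOT were below vehicle (-1.34 ± 0.081, -0.77 ± 0.081 and -1.46 ± 0.081). NSUN2, which methylates tRNA, changed by -1.11 ± 0.095, -0.54 ± 0.095 and -1.55 ± 0.095. DUS1L, which makes dihydrouridine in tRNA, changed by -1.24 ± 0.12, -1.14 ± 0.12 and -1.59 ± 0.12. Of 18 genes of RNA polymerase III and its factors, which transcribe tRNA genes, 11 were lower under trametinib, 6 under panobinostat and 11 under both, and none was higher (medians -0.63, -0.34 and -0.65). The subunit gene POLR3G changed by -1.78 ± 0.19 with trametinib and -0.73 ± 0.19 in the combination, with 0.40 ± 0.19 under panobinostat, which did not pass (adjusted p = 0.143). Its combination call ended without vehicle replicate 1 (-0.71) or 2 (-0.75) or combination replicate 2 (-0.41).

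The transcription factors known for their link to synthetase genes were read in the same libraries. ATF4 RNA had 3913 and 3898 in the vehicle libraries, 3656 and 3839 under trametinib, 3241 and 3112 under panobinostat, and 2118 and 2127 under both drugs. The trametinib change did not pass (-0.06 ± 0.059, adjusted p = 0.415), and it was lower with panobinostat (-0.30 ± 0.059, adjusted p = 0.00465) and in the combination (-0.88 ± 0.059, adjusted p = 2.7e-06). ATF4 is largely controlled at translation, and its protein was not measured. DDIT3 and ASNS, known ATF4 targets, passed under no treatment by limma, with ASNS at -0.45 ± 0.21, 0.41 ± 0.21 and -0.28 ± 0.21. Of the 28 tested genes of the amino acid response list, 8 were higher and 13 lower under trametinib, 3 higher and 11 lower under panobinostat, and 6 higher and 15 lower under both (medians -0.59, -0.13 and -0.75). Over all tested genes the shares were 23.7% higher and 27.4% lower, 15.0% and 15.6%, and 24.5% and 25.5%, so the numbers higher were near or under the share over all genes. SLC7A5, a subunit of the large neutral amino acid transporter, had 5706 and 5573 in the vehicle libraries, 17094 and 16709 under trametinib, 3403 and 3549 under panobinostat, and 6659 and 6926 under both drugs, with trametinib highest and panobinostat lowest. SLC1A5, a glutamine transporter, changed by -3.21 ± 0.18, -1.12 ± 0.18 and -3.11 ± 0.18, and DDIT4, an inhibitor of mTORC1 signalling, by 2.24 ± 0.17, 2.38 ± 0.17 and 4.33 ± 0.17.

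MYC, a transcription factor that acts at E-boxes, had 4021 and 4133 in the vehicle libraries, 53.2 and 32.1 under trametinib, 5921 and 6139 under panobinostat, and 44.5 and 89.8 under both drugs. Its value collapsed in the trametinib and combination libraries (-6.59 ± 0.30 and -5.99 ± 0.30) and was above vehicle in both panobinostat libraries, though not past the test (0.56 ± 0.30, adjusted p = 0.194). MAX, the partner of MYC, changed by 0.54 ± 0.13, 0.57 ± 0.13 and -0.01 ± 0.13, and its panobinostat call ended without either library of vehicle (0.56 and 0.57) or panobinostat (0.56 and 0.57). MYCN was in the table but not tested, being under the minimum mean. Whether any of these factors bears on the synthetase changes was not tested.

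**Figure D5:**
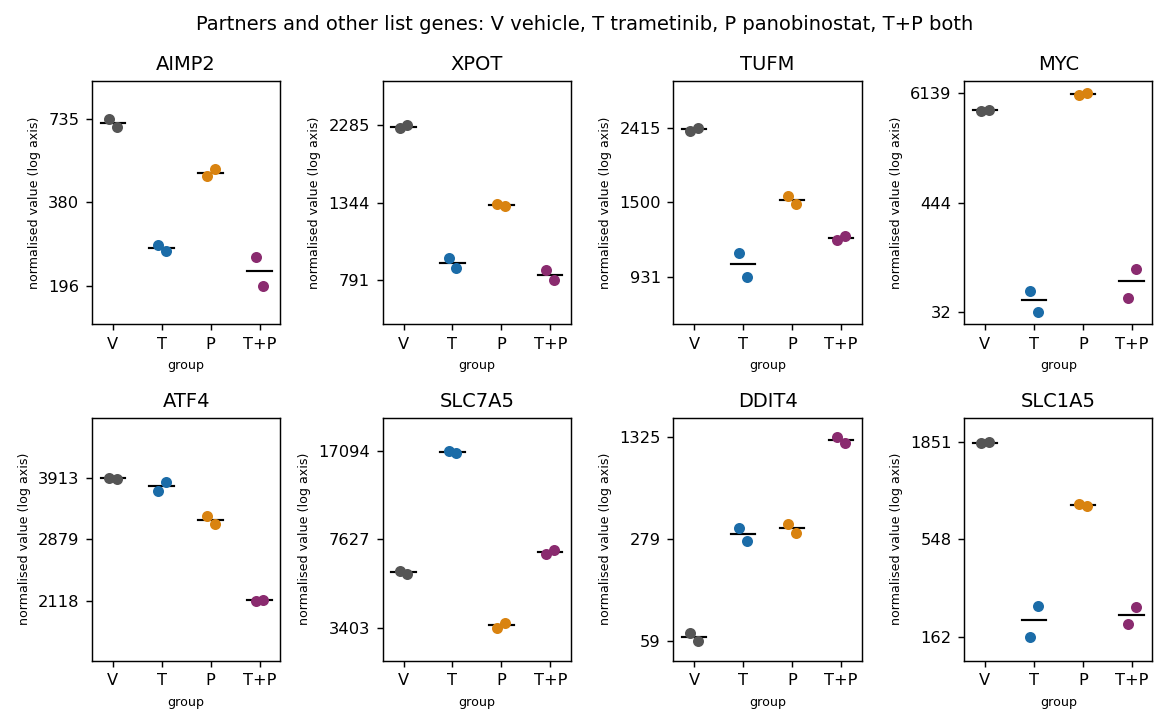
Normalised values (vertical log axis) of 8 genes from the lists that work with or control the synthetases, 1 point per library, with the group mean as a bar, for vehicle (V), trametinib (T), panobinostat (P) and both drugs (T+P). AIMP2, XPOT and TUFM are below vehicle in all 6 treated libraries, and ATF4 is lowest in the combination.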

How the data were processed

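The authors deposited 1 normalised signal value per gene symbol and library for 18406 symbols. TopHat2 2.0.13, Cufflinks 2.2.1 and DESeq2 are named, per the submitters' processing notes, which list build hs37d5 for the libraries of vehicle and of trametinib but no build for the other 4. The annotation and the use of strand in counting are not given in the sources used here. Total RNA went into a NuGEN Ovation kit for FFPE RNA, per the labels' protocols. All values were whole multiples of 1 step per library within 1e-06, that is, counts divided by a size factor. The value of 1 read was 0.602 to 1.52, and the totals were 6897784 to 16861001 reads. Intervals cover the spread between libraries.

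Genes were tested with limma 3.58.1 (R 4.3.3) with an intensity trend on log2(value + 1), over 13320 genes with a mean of at least 10. All 8 libraries entered 1 fit without a replicate block (4 residual and 5.32 prior degrees of freedom), with a Benjamini-Hochberg adjusted p under 0.05 over all tested genes. A change on this scale understates that of low genes. The script was tested on simulated data. Alternatives were other pseudocounts, filters and scalings, edgeR 4.0.16 and DESeq2 1.42.0 on the recovered reads, fits on the compared groups, array weights, a replicate block and leaving out each library.

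The members and the gene lists were chosen with earlier results of these data known. Every member could be named. Values in every library were given for the 5 largest rises and falls per class past the threshold, members in the interaction and members that moved against their class. Other lists gave up to 4 genes of smallest adjusted p and a fixed set of factors. Promoter sequences are from RefSeq (GRCh38.p14).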

Additional observations from a re-analysis of the deposited data

Results flagged for a closer look

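In 5 synthetases the change from trametinib to the combination differed from the change from vehicle to panobinostat by the interaction term of limma. Its log2 value was 1.44 for MARS2, 0.46 for IARS2 and 0.37 for LARS, whose combination was less low than the sum of the single-drug changes. It was -0.44 for QARS, which was raised less in the combination than by that sum, and -0.37 for AARS, which was lower than that sum. Each adjusted p was between 0.0337 and 0.0491, and none of these calls held under every alternative. Of the 36 synthetases, 8.33% were thus called above 0 and 5.56% below, under the 10.2% and 9.04% of all tested genes.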

How the results depend on the processing

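No call of a synthetase turned direction under any alternative. Against vehicle, 15 of 19 calls held under every alternative with trametinib, 2 of 14 with panobinostat and 21 of 27 in the combination. Of the calls in the other comparisons, 8 of 15 held for combination against trametinib, 11 of 18 for combination against panobinostat, 8 of 11 for trametinib against panobinostat and 0 of 5 in the interaction. Most losses came from leaving out 1 library. Without it the lone library is assumed to vary like the other groups.

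Mitochondrial genes higher with trametinib, 0, became 1 with edgeR or DESeq2 on recovered reads. Genes higher with panobinostat, 0 in each class, became 1 cytosolic with a mean of at least 50, DESeq2, the compared groups alone or array weights, and 1 mitochondrial with the latter 2. With those 2 the mitochondrial genes lower with panobinostat, 4, became 8 and 7, and the cytosolic ones, 10, became 15 and 14. The mitochondrial gene higher in the combination, 1, became 0 with log2(value + 5), no filter, TMM, median rescaling or edgeR. Genes higher in the combination than with trametinib, 2, became 1 with no filter, TMM, median rescaling, edgeR or array weights and 0 with the compared groups alone, where the 13 lower became 8. Genes higher with trametinib than with panobinostat, 3, became 1 with the compared groups alone or array weights. In the interaction the 3 above 0 became 0 with no filter, 1 with TMM, median rescaling or edgeR and 5 with DESeq2, and the 2 below became 1 with no filter or array weights.

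With 1 library left out, the ranges were as follows. With trametinib, cytosolic genes higher were 1 to 1 and lower 10 to 15, mitochondrial genes higher 0 to 2 and lower 4 to 6, and the difference of class medians -0.60 to -0.24. With panobinostat they were 0 to 1, 3 to 13, 0 to 1, 0 to 7 and 0.04 to 0.12, and in the combination 0 to 1, 15 to 18, 0 to 1, 6 to 9 and -0.23 to 0.0012. For combination against trametinib, genes higher were 0 to 7, lower 9 to 21 and the class difference -0.23 to 0.15. These were 0 to 0, 12 to 21 and -0.45 to -0.31 for combination against panobinostat, 1 to 6, 7 to 12 and -0.42 to -0.21 for trametinib against panobinostat, and 0 to 7, 0 to 4 and -0.23 to 0.075 in the interaction. The cause of these moves was not tested.

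A replicate block was fitted as an alternative. The deviations of same-numbered libraries correlated between -0.0235 and 0.0218, so no effect shared by libraries of the same number was seen. Whether same-numbered libraries were handled together is not stated, and these correlations cannot show it. With the block, mitochondrial genes higher with trametinib became 1, those higher in the combination 0, and the interaction gave 1 above 0 and 1 below. Reads limit the mitochondrial genes most, down to 29 reads of YARS2 in a library.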

Other observations

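Further synthetase genes lie head to head with another gene in the RefSeq table. The starts of KARS and TERF2IP were 108 bases apart, those of WARS and WDR25 158, of EARS2 and UBFD1 377, of FARS2 and LYRM4 57, of RARS2 and ORC3 148, and of SARS2 and MRPS12 181. Those of TARS and TARS1-DT were 331 bases apart, and those of FARSB and LOC124907985 341. Synthetase genes without a promoter entry could not be searched. These starts leave a gap between the neighbours, and whether other transcripts of them overlap was not examined. The sources used here do not say whether counting used the strand, which would matter for any that do.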
